A study of Mus musculus with 6 samples.

Results

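The insulin-like growth factor (IGF) axis was followed through 10 transcripts in RNA of mouse kidney glomeruli, out of 27179 features in the deposited table. They are the ligand Igf1, the receptors Igf1r and Igf2r, and the binding proteins Igfbp1 to Igfbp7. Members were found by matching NCBI Gene identifiers to these symbols, and all 10 were matched. The family was chosen because Igfbp2 is among the largest increases between the genotypes, where it held place 3 of 1700 increases ranked by log2 difference (past the threshold given below, a mean normalised count of at least 50, groups not overlapping, predicted genes left out). The difference between genotypes is therefore described for the members and carries no p-value, and the size of the Igfbp2 increase supports nothing by itself.

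The libraries came from 3 KO and 3 WT mice, male, aged 9 weeks, of a mixed C57BL/6 strain and labelled as mildly proteinuric. All mice carried floxed Parva (Parva-fl/fl), which encodes alpha-parvin, a protein that links integrin-linked kinase to actin. The KO mice also carried hNPHS2Cre, a Cre recombinase under the human podocin promoter, which is active in podocytes, so the controls are floxed mice without Cre. Glomeruli were isolated whole with magnetic beads, and the RNA also holds that of cells without Cre.

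IGF-I, the product of Igf1, acts on cells through the receptor tyrosine kinase encoded by Igf1r, which signals through PI3K and AKT. The receptor encoded by Igf2r, also the mannose 6-phosphate receptor, takes up IGF-II for degradation and has no kinase. The binding proteins hold IGFs in plasma and in matrix with high affinity, carry them and limit their access to the receptor, and proteases release the ligand from them. The product of Igfbp7 is a more distant relative with low affinity for IGFs. In the kidney, IGF-I is known as a growth factor that raises filtration.

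The binding protein genes lie partly in neighbouring pairs. On mm10, Igfbp2 (NCBI Gene 16008; chromosome 1, 72824480 to 72852474) stands 5590 bp from Igfbp5 (NCBI Gene 16011; chromosome 1, 72858065 to 72874865). Igfbp1 (NCBI Gene 16006; chromosome 11, 7197787 to 7202546) stands 3539 bp from Igfbp3 (NCBI Gene 16009; chromosome 11, 7206086 to 7215498). In each pair, as described below, the first gene had KO values above all WT values and its neighbour did not.

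The stretches before the start sites of Igfbp1 and Igfbp2 are shown because these members had the largest ratios of KO to WT. They are the 250 bases before the annotated start, 5′ to 3′, from RefSeq on GRCm38.p6, the assembly of mm10. Capitals mark the insulin response element of Igfbp1, an inverted repeat at which FOXO factors are known to bind and through which insulin is known to lower Igfbp1 transcription. In Igfbp2 they mark GC boxes, the letters bound by SP1.
Igfbp1 (chr11:7197537-7197786, plus strand): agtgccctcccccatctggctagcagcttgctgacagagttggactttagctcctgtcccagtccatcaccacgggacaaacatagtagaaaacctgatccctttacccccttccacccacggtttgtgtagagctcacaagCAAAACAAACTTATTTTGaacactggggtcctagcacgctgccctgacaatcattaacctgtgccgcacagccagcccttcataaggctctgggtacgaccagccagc
Igfbp2 (chr1:72824230-72824479, plus strand): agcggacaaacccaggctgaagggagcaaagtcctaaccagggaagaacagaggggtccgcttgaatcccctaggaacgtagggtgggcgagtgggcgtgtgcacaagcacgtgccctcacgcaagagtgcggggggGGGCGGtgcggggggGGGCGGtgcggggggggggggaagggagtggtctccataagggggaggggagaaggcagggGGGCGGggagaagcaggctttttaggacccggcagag

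Both strands were searched in the 250 bases before 32851 annotated starts, with the starts of 1 chromosome left out. All windows below means these. The letters CAAAACANNNNTATTTTG, the repeat with 4 free bases, occurred in 1 of these windows (0.00304%), that of Igfbp1, beginning 108 bases before its start. The letters searched are those of the element known from Igfbp1, so this match was fixed in advance and nothing is read from its share. The left arm of the repeat alone, CAAAACA, occurred in 5.56% of the windows and in no other member's. GC boxes (GGGCGG) were present in 32.7% of all windows, and in those of Igfbp2 (3 boxes, beginning 113, 98 and 37 bases before the start), Igfbp7 (4), Igf2r (3) and Igf1r (2). The TATA box letters TATAAA, present in 12.4% of all windows, occurred in those of Igfbp4 and Igfbp6, beginning 28 and 148 bases before the start. The windows of Igf1, Igfbp3 and Igfbp4 lie inside the annotated spans of these genes. The share of G and C was 67.2% before Igfbp2 and 53.2% before Igfbp1, against a median of 52.4% over all windows. These matches describe letters, not binding.

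The whole reads recovered per library numbered 11886828 to 20552984. In 10 genes, those with at least 30 times more in a single library than elsewhere, lay 17.4% to 32.4% of the reads of WT-1, WT-2, WT-3 and KO-1 and at most 0.241% of those of KO-2 and KO-3; no member is among them. Parva checked the labels, at 6585, 7520 and 7890 normalised counts in WT and 2288, 2338 and 1942 in KO. The genotypes were compared with limma on log2(normalised count + 1) over 13946 genes with a mean of at least 10 normalised counts, at a threshold of 0.05 for the Benjamini-Hochberg adjusted p. Background shares below are shares of these genes.

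Markers of several cell types, though not of all, moved with genotype. Here, rose and fell mean past the threshold, as 13.5% and 8.58% of all genes tested did. All 21 podocyte markers were detected in every library, and 8 fell, with summed levels of 279871 to 348811 in WT and 197690 to 285894 in KO. Of 22 proximal tubule markers all rose, and the sums were 64671 to 144755 in WT, highest in WT-1, and 195203 to 284166 in KO. Of 20 endothelial markers 17 fell (84781 to 102723 in WT, 56470 to 69795 in KO) and of 10 mesangial markers 8 fell (45804 to 58104 in WT, 30661 to 37489 in KO). Among 20 markers of distal tubule and collecting duct, 3 rose (0 in edgeR and 10 in DESeq2; 11559 to 39082 in WT, 36567 to 77705 in KO), and of 9 parietal epithelial markers 4 rose and 1 fell (11171 to 12252 in WT, 8124 to 9752 in KO). Of 7 markers of smooth muscle and renin cells, 6 of them tested, 1 rose and 3 fell (5176 to 5632 in WT, 4208 to 6560 in KO). Of 7 interstitial fibroblast markers, 5 of them tested, 1 fell (4090 to 5193 in WT, 2578 to 4671 in KO, with Lum and Dpt at 0 in some libraries). Of 12 immune markers, 11 were tested and 0 passed in limma, edgeR and DESeq2, with 0 at an unadjusted p below 0.05 in limma (810 to 1524 in WT, 866 to 2195 in KO, with Cd3e at 0 in some libraries). No marker of these lists was at 0 in all libraries. In such whole-glomerulus RNA, fewer cells of a type and less RNA per cell cannot be told apart. The part of the higher tubule RNA in the lower sums of other markers was not tested.

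Of the 10 members, all of which were tested, 3 passed the threshold, all higher in KO (background 22.1% in either direction, 13.5% higher and 8.58% lower), namely Igfbp2, Igfbp1 and Igf2r. In 5 the groups did not overlap, 4 with KO higher and 1, Igfbp5, with KO lower (background 45.1%, 23.2% and 21.9%). The median log2 difference was 0.25 over the members and -0.006 over all genes tested. The family was chosen from this comparison, so nothing is read from the count. It was 0 in limma when WT-2, WT-3, KO-2 or KO-3 was left out, and 1, that of Igfbp2, when KO-1 was. Over all genes tested, the first 4 of these fits called 1, 0, 4 and 3 genes, and the fit without KO-1 called 2063. The loss is thus not particular to the members. The plot of values by library shows each member in each library.

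**Figure D1:**
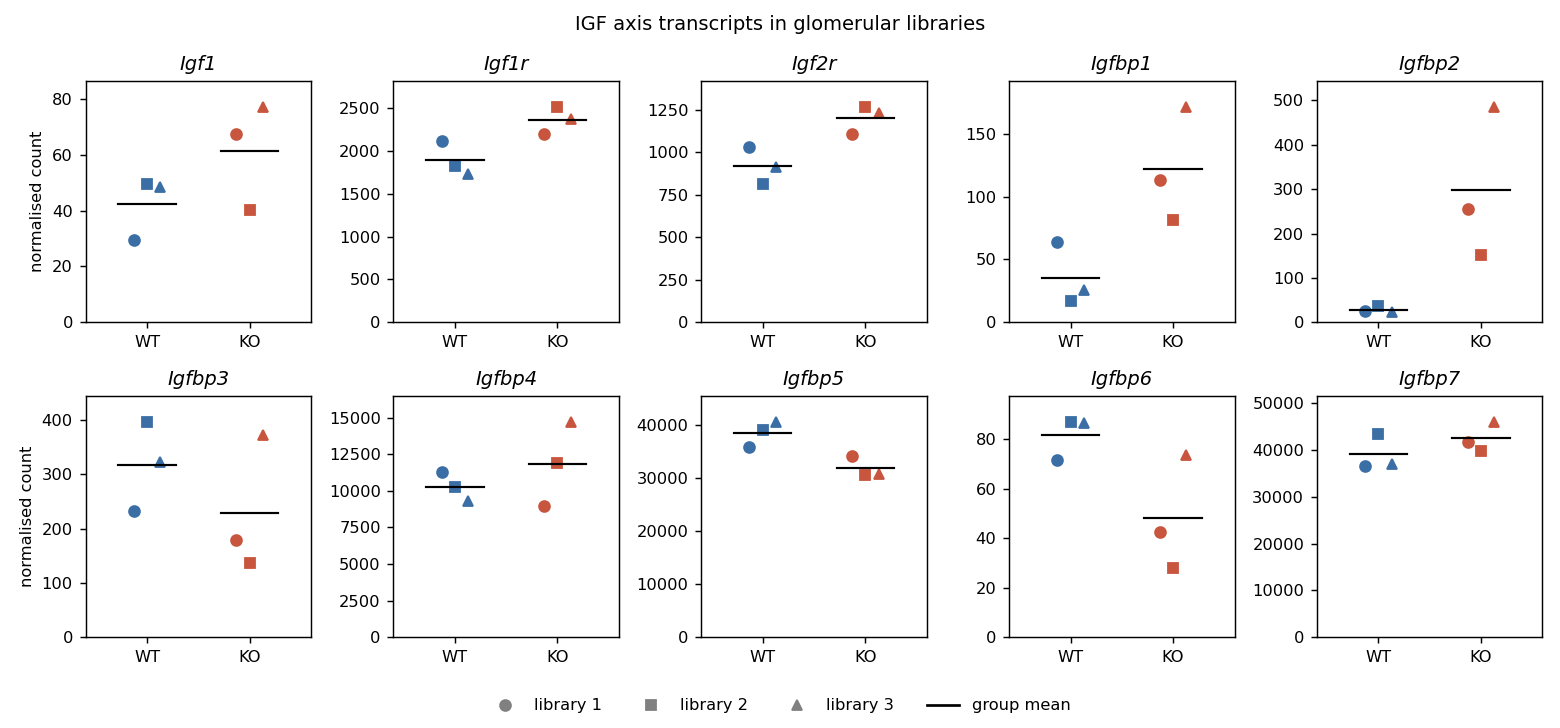
Normalised counts (vertical axis, from 0) of the 10 members in the 3 WT (blue) and 3 KO (red) libraries, with a line at the group mean and a marker shape for the library number. Igfbp2 lies between 152.7 and 485.3 in KO and at most at 36.6 in WT, whereas Igfbp4 and Igfbp7 overlap between the groups.

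Levels between genes were compared per length, as normalised counts per kb of annotated exon (GENCODE M21). Igfbp7 was the most abundant member in WT at 32291 ± 3178 per kb, followed by Igfbp5 at 6411 ± 411 and Igfbp4 at 2326 ± 224 (SD, n = 3). The ranges of these 3 genes did not touch in either genotype. Igf1r, Igfbp3 and Igf2r came next, at 113 ± 11.98, 101 ± 26.3 and 98.6 ± 11.7 per kb (SD, n = 3), and overlapped from one to the next. They were followed by Igfbp6 at 73.5 ± 7.82 and by Igfbp1 and Igfbp2, which overlapped at 23.3 ± 16.5 and 15.5 ± 3.86 per kb (SD, n = 3). Igf1 was the lowest member in WT and in KO, at 4.29 ± 1.15 and 6.21 ± 1.94 per kb (SD, n = 3).

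In KO the first 3 places were the same, and Igfbp2 moved from place 9 to place 4 at 161 ± 92.2 per kb (SD, n = 3). There its range overlapped that of Igf1r, at 140 ± 9.54 per kb, and the receptor's overlapped that of Igf2r, at 129 ± 9.01 per kb (SD, n = 3). Igfbp1, Igfbp3 and Igfbp6 followed at 80.0 ± 29.9, 73.2 ± 40.1 and 43.3 ± 20.9 per kb (SD, n = 3), overlapping from one to the next. Even so, Igfbp2 made up 0.0314% to 0.0440% of the summed per-kb level of the 7 binding proteins in the WT libraries and 0.202% to 0.558% in the KO libraries. Igfbp7 made up 77.1% to 79.8% in WT and 80.5% to 81.1% in KO.

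**Figure D2:**
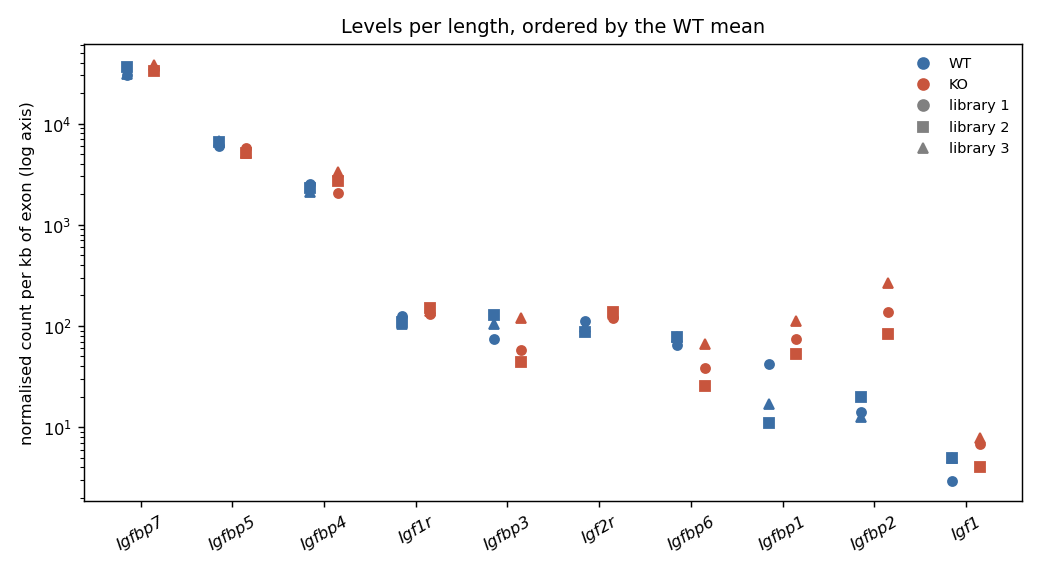
Normalised count per kb of exon (log axis) of each member in every library, ordered by the WT mean, WT in blue and KO in red. Igfbp7, Igfbp5 and Igfbp4 stand above the other members in all libraries, and Igfbp2 shows the largest gap between the groups.

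The ligand gene Igf1 (NCBI Gene 16000; chromosome 10, 87858265 to 87937047) was scarce. Its normalised counts were 29.3, 49.5 and 48.6 in WT and 67.3, 40.1 and 77.1 in KO, with libraries given in the order of their numbers here and below. The groups overlapped, since KO-2 lay below WT-2 and WT-3. Each value rests on 27 to 76 reads, and the 95% exact Poisson interval of WT-1 was 19.3 to 42.7 normalised counts, a range that covers counting error only. The log2 difference was 0.51 (SE 0.33), and leaving out 1 library at a time gave 0.27 (without WT-1) to 0.79 (without KO-2), with 0.32 without KO-3. With the mean log2 level of the proximal tubule markers as a covariate it was 1.51 (SE 0.54).

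Both receptors were somewhat higher in KO. Igf1r (NCBI Gene 16001; chromosome 7, 67952257 to 68233668), the signalling receptor, had 2117, 1821 and 1733 normalised counts in WT and 2191, 2511 and 2368 in KO. All KO values lay above all WT values, with WT-1 close to KO-1. Its mean was 1891 ± 201 in WT and 2357 ± 160 in KO (SD, n = 3), a log2 difference of 0.32 (SE 0.11). Igf2r (NCBI Gene 16004; chromosome 17, 12682406 to 12769706), the clearing receptor, had 1029, 811 and 913 normalised counts in WT and 1107, 1267 and 1233 in KO. Here too the groups did not overlap and WT-1 was the nearest WT library to KO. The log2 difference of Igf2r was 0.39 (SE 0.11). Igf2r passed the threshold in 7 of 18 alternatives, against 10 for Igfbp1 and 11 for Igfbp2. It did not pass in edgeR, with upper quartile scaling or without the filter on the mean.

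The receptors kept a similar ratio. Per 1000 reads of Igf2r there were 1899 to 2247 reads of Igf1r in WT and 1921 to 1982 in KO, so the KO range lay inside the WT range. This ratio is taken within a library and does not depend on scaling. The Igf2r value has a limit of its own. Its antisense gene Airn overlaps it and stood at 93.4, 72.2 and 70.8 normalised counts in WT and at 151, 117 and 332 in KO, and with the strand setting of the counting not given, reads of the overlap cannot be assigned to one of the genes.

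The tubule markers were higher in the same KO libraries, and highest in WT-1 among the controls. With the same covariate, the log2 difference was -0.03 (SE 0.14) for Igf1r and 0.03 (SE 0.16) for Igf2r. That mean itself separated the groups, at 11.06 to 12.24 in WT and 12.64 to 13.22 in KO, so the covariate and genotype overlap in this fit, and the part of tubule RNA in the receptor values was not tested.

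Igfbp2, whose product is a plasma binding protein made in liver and other tissues, was the member with the largest difference. Its normalised counts were 26.1, 36.6 and 23.0 in WT and 256, 153 and 485 in KO. The WT libraries were alike, and the KO libraries differed among themselves, with KO-3 the highest and KO-2 the lowest. The values rest on 24, 37 and 28 reads in WT and on 289, 141 and 428 in KO. Their 95% exact Poisson intervals, which cover counting error only, reach at most 50.5 normalised counts in WT and begin at 129 in KO.

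The mean of Igfbp2 was 28.6 ± 7.13 in WT and 298 ± 170 in KO (SD, n = 3), a ratio of 10.4 and a log2 difference of 3.21 (SE 0.41). From the spread of Igfbp2 alone the SE would be larger, at 0.52. Leaving out 1 library at a time gave 2.77 to 3.61. With the proximal tubule markers as a covariate, which overlaps with genotype, the difference was 3.49 with a wider SE of 0.84. The part of tubule RNA in the Igfbp2 values was not tested. Against its abundant neighbour, Igfbp2 had 0.568 to 0.936 reads per 1000 reads of Igfbp5 in WT and 4.98 to 15.8 in KO, again independent of scaling.

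Igfbp1, which encodes a binding protein that liver is known to secrete under low insulin, was also higher. It had 64.1, 16.8 and 25.5 normalised counts in WT and 113, 81.2 and 171 in KO. The groups did not overlap, but WT-1 came near KO-2, and their 95% exact Poisson intervals, 48.8 to 82.7 and 63.9 to 102 normalised counts, overlapped. Its mean was 35.5 ± 25.2 in WT and 122 ± 45.6 in KO (SD, n = 3), a ratio of 3.44 and a log2 difference of 1.91 (SE 0.50). From the spread of Igfbp1 alone the SE would be larger, at 0.63. With the proximal tubule markers as a covariate the log2 difference fell to 0.29 (SE 0.76). The part of tubule RNA in the Igfbp1 values was not tested. Per 1000 reads of its neighbour Igfbp3, Igfbp1 had 276, 42.4 and 78.9 reads in the WT libraries and 460 to 634 in KO.

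Igfbp3, the main IGF carrier of plasma, overlapped between the groups. It had 232, 397 and 323 normalised counts in WT and 179, 136 and 372 in KO, with KO-3 in the range of WT and the other KO libraries below all WT libraries. Its log2 difference was -0.57 (SE 0.37), with -0.98 without KO-3 and -0.26 without KO-2. With the proximal tubule markers as a covariate the value was 0.09 (SE 0.71).

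Igfbp6 (NCBI Gene 16012; chromosome 15, 102144186 to 102149512), which prefers IGF-II to IGF-I, showed the same layout. It had 71.7, 87.1 and 86.4 normalised counts in WT and 42.5, 28.2 and 73.7 in KO. KO-3 again lay in the range of WT, just above WT-1, and KO-1 and KO-2 lay below all WT libraries. The log2 difference was -0.85 (SE 0.34), with -1.21 without KO-3 and -0.53 without KO-2, and -0.47 (SE 0.69) with the covariate. Each library held 26 to 105 reads of this gene.

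Igfbp5, which binds to extracellular matrix, was the abundant member that was lower in KO. It had 35778.5, 39132 and 40597 normalised counts in WT and 34185, 30652 and 30786 in KO. All KO libraries lay below all WT libraries, with WT-1 and KO-1 closest. The mean was 38502 ± 2470 in WT and 31874 ± 2002 in KO (SD, n = 3), a log2 difference of -0.27 (SE 0.19) that did not pass the threshold. The SE from the spread of Igfbp5 alone would be 0.07, since limma draws the variance of a gene toward that of genes of like abundance. With the proximal tubule markers as a covariate the difference was -0.03 (SE 0.25). Endothelial and mesangial markers were lower in the same libraries, and their part in the Igfbp5 values was not tested.

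The other abundant binding proteins, Igfbp7 and Igfbp4, overlapped between the groups. Igfbp7 (NCBI Gene 29817; chromosome 5, 77349240 to 77408045), a matrix and vessel protein also known as a urinary marker of kidney stress, had 36628, 43470 and 37023 normalised counts in WT and 41750, 39845 and 46014 in KO. WT-2 lay inside the KO range, and the log2 difference was 0.13 (SE 0.21). It was 0.08 without WT-1, 0.21 without WT-2, 0.07 without KO-3, 0.065 with upper quartile scaling and 0.27 (SE 0.30) with the covariate. Igfbp4 (NCBI Gene 16010; chromosome 11, 99040005 to 99052655), the substrate of the protease pappalysin, had 11254.5, 10277 and 9278 in WT and 8989, 11885 and 14716 in KO. KO-1 lay below and KO-2 and KO-3 above all WT libraries, so the KO libraries spread around the WT range, and the log2 difference was 0.18 (SE 0.20). It was 0.11 without WT-3, 0.37 without KO-1 and 0.01 without KO-3, and with the covariate the sign turned, at -0.26 (SE 0.32).

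A ratio within libraries separated the 2 most abundant members. Per 1000 reads of Igfbp7 there were 977, 900 and 1097 reads of Igfbp5 in WT and 819, 769 and 669 in KO. The KO ratios lay below all WT ratios, at a mean of 752 ± 76.3 against 991 ± 99.0 (SD, n = 3). The ratio does not depend on scaling and does not show which of the genes differed.

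**Figure D3:**
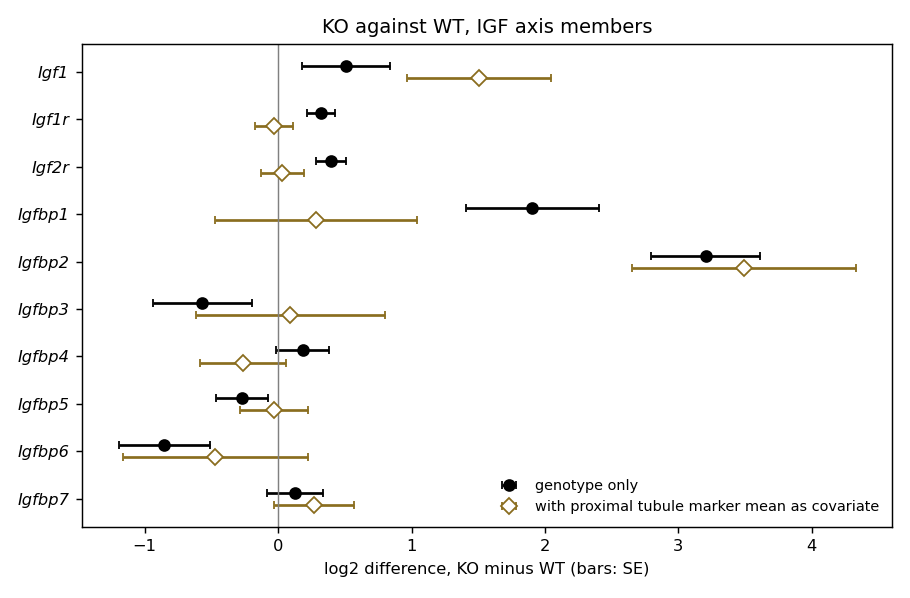
Log2 difference of each member, KO minus WT, on the scale of log2(normalised count + 1), with bars for the SE, in the fit with genotype alone (filled) and with the covariate of proximal tubule markers (open). Igfbp2 is at 3.21 in the first fit and 3.49 in the second, and Igf1r and Igf2r lie near 0 with the covariate.

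Among the KO libraries, KO-3 was the highest for 7 of the 10 members, all but Igf1r, Igf2r and Igfbp5, and the lowest for none. Over all genes tested it was the highest for 33.8% and the lowest for 37.0%. KO-2 was the lowest for 7 of the members, against 27.6% of all genes tested. The library order was set beside the members after their values were seen. Over the KO libraries the interstitial fibroblast markers summed to 3515, 2578 and 4671 and the immune markers to 1444, 866 and 2195 normalised counts, also highest in KO-3 and lowest in KO-2. The same order held for the sums of the endothelial, parietal epithelial, and smooth muscle and renin cell markers. It did not hold for those of proximal tubule, distal tubule and collecting duct, mesangial and podocyte markers. The part of any of these cell types in the spread of the members was not tested.

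The genes whose values over the 6 libraries were most like those of Igfbp2 were Aldh1a1, Cpn1 and Pamr1. Likeness was the root mean square difference of log2 values centred per gene. It was taken among 11413 named genes with a mean of at least 50, predicted genes left out. The difference was 0.39 for Aldh1a1, a retinaldehyde dehydrogenase, 0.46 for Cpn1, a subunit of carboxypeptidase N, and 0.53 for Pamr1, against a median of 1.70 over all genes compared. Aldh1a1 had 35.8, 24.7 and 14.8 normalised counts in WT and 181, 166 and 464 in KO. Pamr1 was steadier, at 199, 156 and 160 in WT and 848, 859 and 1296 in KO. All 3 were highest in KO-3, as Igfbp2 was, and the proximal tubule marker mean was highest in KO-2. The likeness includes the difference between genotypes and the order of the libraries within each, and it carries no test. The genes were picked by it, so nothing is read from the shared peak in KO-3.

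**Figure D4:**
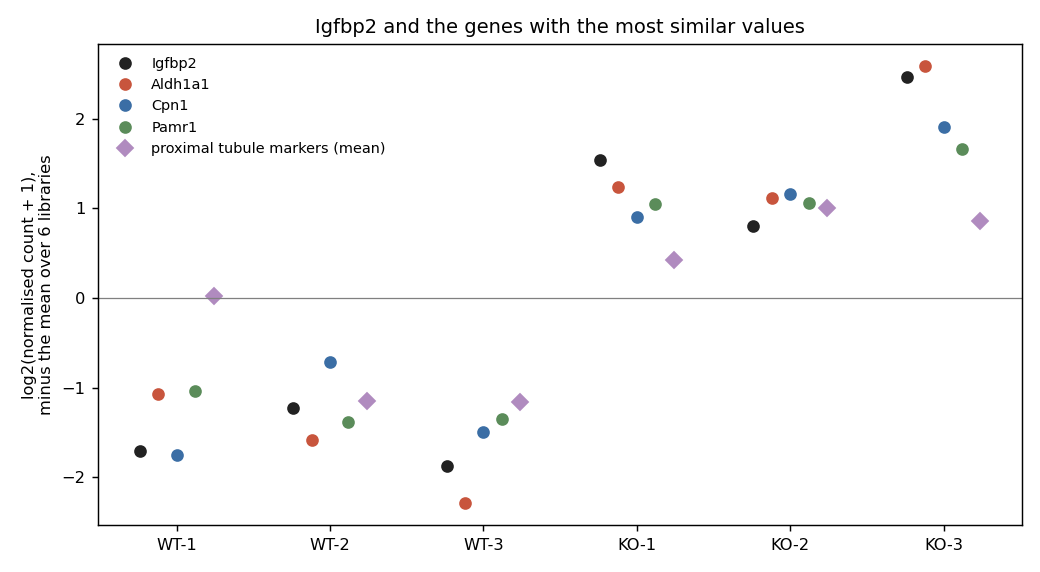
Log2(normalised count + 1) minus its mean over the 6 libraries, per library, for Igfbp2, the 3 genes most like it and the mean of the proximal tubule markers (diamonds). Igfbp2 and Aldh1a1 stand highest in KO-3, and the marker mean stands highest in KO-2.

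Among 73 other genes of the pathway, 63 were tested and 9 passed the threshold, 5 higher and 4 lower in KO, or 14.3% against 22.1% of all genes tested (13.5% higher and 8.58% lower). The median log2 difference of the 63 was -0.05. All 9 calls were lost in limma when WT-2, WT-3, KO-2 or KO-3 was left out, where 1, 0, 4 and 3 of all genes were called. The count was 4 without KO-1, with Igfals, Ghr and Ccn1 among them, 19 without WT-1 and 15 in DESeq2. Over all genes these fits called 2063, 4295 and 3810. With the proximal tubule markers as a covariate the count was 0 in the pathway and over all genes. There, 4 of the pathway genes had an unadjusted p below 0.05 in limma.

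Of the other ligands, Igf2 was scarce. It had 22.8, 13.9 and 39.5 normalised counts in WT and 17.7, 31.4 and 23.8 in KO, a log2 difference of 0.02 (SE 0.43, limma adjusted p = 0.972). Its sign rests on single libraries and on the method, at -0.33 without WT-2, -0.17 without KO-2, 0.39 without WT-3 and 0.22 without KO-1, and at -0.03 with upper quartile scaling, -0.24 with the covariate, -0.09 in edgeR and -0.08 in DESeq2. The insulin genes Ins1 and Ins2 had no read in any library, where a count of 0 allows up to 3 reads, or 0.252 per 1000000 reads of the shallowest library. The insulin receptor gene Insr had 878, 1011 and 938 in WT and 968, 974 and 1120 in KO, with a log2 difference of 0.11 (SE 0.10, limma adjusted p = 0.422), which was 0.06 without WT-1, 0.05 without KO-3 or with upper quartile scaling and 0.25 with the covariate. The groups overlapped for both Igf2 and Insr.

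Of 8 tested partners and proteases of the binding proteins, 1 rose and 1 fell. Igfals, the acid-labile subunit that holds IGF and Igfbp3 or Igfbp5 protein in a ternary plasma complex, rose from 26.1 ± 8.14 to 63.2 ± 13.3 (SD, n = 3), a log2 difference of 1.27 (SE 0.32, limma adjusted p = 0.034). Adam12, a protease known to cut the Igfbp3 and Igfbp5 proteins, fell from 244 ± 30.9 to 168 ± 16.5 (SD, n = 3), a log2 difference of -0.53 (SE 0.14, limma adjusted p = 0.041). With the covariate the values were 0.68 (SE 0.62) for Igfals and -0.14 (SE 0.25) for Adam12.

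Of 7 genes of growth hormone signalling, which drives Igf1 transcription, 2 rose and none fell in limma. The receptor gene Ghr had 2544, 1309 and 1341 normalised counts in WT and 2988, 3843 and 3488 in KO, with WT-1 the highest WT library. It rose by a log2 difference of 1.05 (SE 0.26, limma adjusted p = 0.0331), and with the covariate the sign turned, at -0.11 (SE 0.15). Stat5a, a transcription factor downstream of the receptor, rose from 107 ± 14.0 to 164 ± 7.02 (SD, n = 3), a log2 difference of 0.62 (SE 0.15, limma adjusted p = 0.0316) and 0.29 (SE 0.28) with the covariate.

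Downstream of the receptors, none of 12 tested adaptor and docking genes passed in limma or edgeR, with 4 at an unadjusted p below 0.05 in limma and 1 call in DESeq2. Of 19 genes from PI3K to mTOR, 2 passed in limma, both lower in KO, and 3 in DESeq2. Pik3r1, a regulatory subunit of PI3K, fell from 2515 ± 244 to 1867 ± 46.6 (SD, n = 3), a log2 difference of -0.43 (SE 0.10, limma adjusted p = 0.0304). With the covariate the value was -0.20 (SE 0.16).

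Of 4 FOXO genes 1 fell. Foxo1, a transcription factor that AKT keeps out of the nucleus, had 1272, 1394 and 1211 normalised counts in WT and 961, 972 and 1036 in KO. The groups did not overlap, and the log2 difference was -0.38 (SE 0.09, limma adjusted p = 0.0304) and -0.37 (SE 0.17) with the covariate. Of 2 tested genes of IGF2 mRNA-binding proteins, 0 passed in limma, edgeR and DESeq2, and 0 had an unadjusted p below 0.05 in limma.

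Of 8 tested genes whose proteins carry an IGFBP-like domain without belonging to the family, 2 rose. Ccn1, a matrix protein and a target of YAP, had 791, 685 and 678 normalised counts in WT and 1463, 1434 and 1625 in KO. Both groups were tight, and the log2 difference was 1.07 (SE 0.10, limma adjusted p = 0.0217) and 0.83 (SE 0.17) with the covariate. Crim1, a membrane protein that binds BMP and VEGF, rose from 3999 ± 257 to 6128 ± 910.5 (SD, n = 3), a log2 difference of 0.61 (SE 0.14, limma adjusted p = 0.0303) and 0.88 (SE 0.23) with the covariate. The plot of the other pathway genes shows 62 of the 63 tested.

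**Figure D5:**
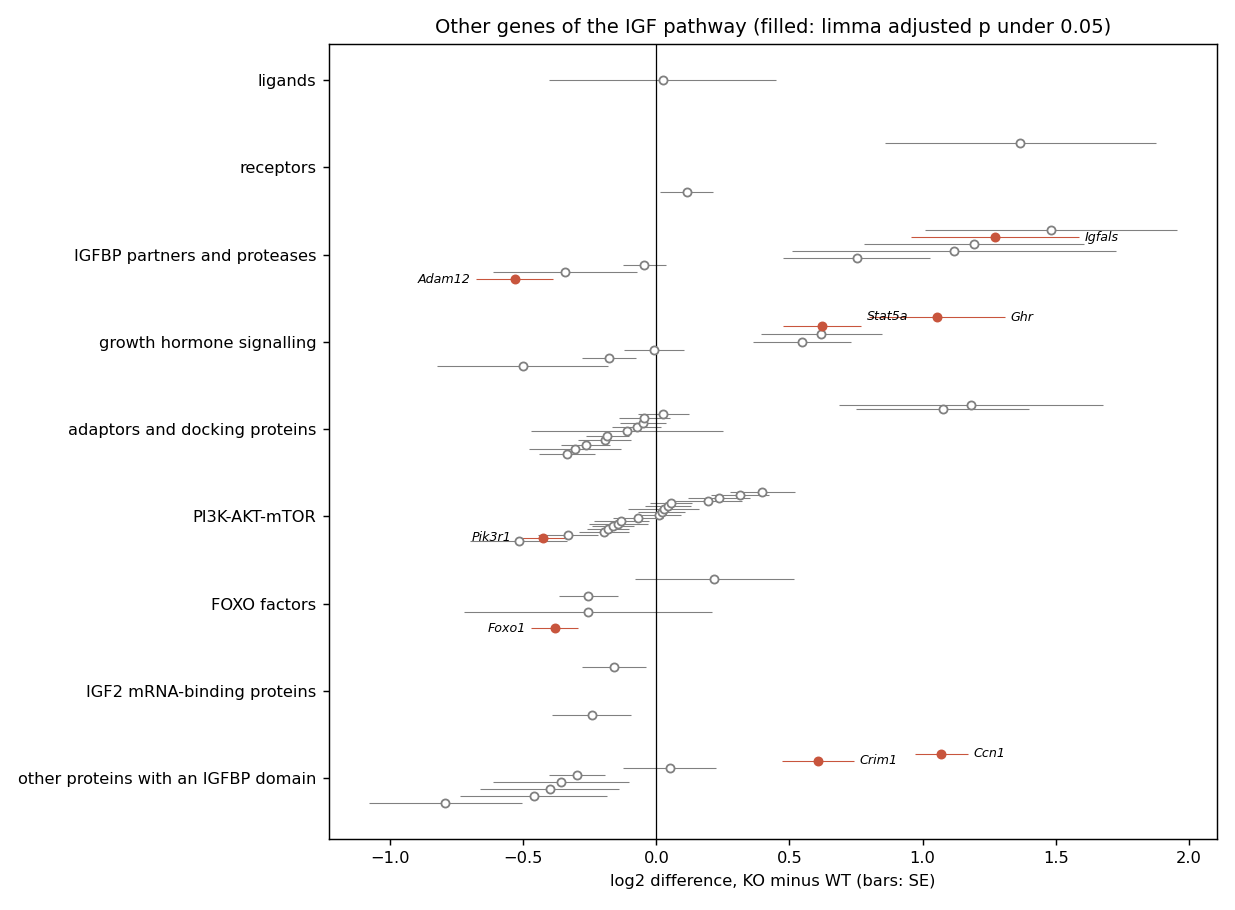
Log2 difference, KO minus WT, with bars for the SE, of 62 of the 63 tested genes of the IGF pathway outside the family, by group, on the scale of log2(normalised count + 1). The 8 filled points passed an adjusted p of 0.05 in limma, and they lie on both sides of 0.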

How the data were processed

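Per the labels' protocols, RNA of bead-isolated glomeruli was sequenced with a directional library kit. Per the file headers and the values, the authors deposited a normalised signal for each library, reads per gene from featureCounts divided by a size factor. The submitters' processing notes name bcl2fastq 2.19, cutadapt 1.16.5, HISAT2 2.1, featureCounts 1.6.4, DESeq2 2.11.40.6 and the build mm10. The strand setting and the annotation release were not given in the sources used here.

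Symbols came from RefSeq (GRCm38.p6). Genotypes were compared in limma 3.58.1 (R 4.3.3), with a variance trend and genotype as sole term, on log2(normalised count + 1), for genes with a mean of at least 10. The threshold was a two-sided Benjamini-Hochberg adjusted p of 0.05 over all genes. On this scale the added 1 draws log2 differences of low genes toward 0, which understates them, and since they compare means of logs they can still exceed the log2 ratio of the group means. All values were whole multiples of 1 step per library (100% at a tolerance of 0.01), which gave whole reads for edgeR 4.0.16 and DESeq2 1.42.0 as alternatives. Lengths are merged exons of GENCODE M21, which need not match the counted annotation. The steps were tested on simulated data.

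Members, lists and alternatives were chosen with earlier results of these data known. Genes named are Parva, the members, Igf2, Insr, up to 4 called genes with the smallest adjusted p in each pathway group and the 3 genes most like Igfbp2. A gene that this rule names is not reported here. Markers serve as values beside the results. The design text gives 3 mice for each genotype. The limma p-values rest on the spread between these libraries, drawn for each gene toward that of genes of like abundance.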

Additional observations from a re-analysis of the deposited data

How the results depend on the processing

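Of 13946 genes, 3085 were called in limma; leaving out 1 library gave 0 to 4295. The members' count of 3 became 0 to 4 and the pathway's count of 9 became 0 to 19. Without the variance trend limma called 1 gene in all, 0 members and 0 pathway genes. With the covariate of proximal tubule markers the counts were 0, 0 and 0, with 398 genes at an unadjusted p below 0.05. DESeq2 called 15 pathway genes. The cause of these differences was not tested. With the replicate number as a block, the counts were 0, 0 and 0, with 4284 genes at an unadjusted p below 0.05. The deviations of same-numbered libraries correlated at -0.23, -0.19 and -0.01, and no library correlated best with its own number. Deviations were centred within each genotype, which constrains these correlations. They cannot show whether same-numbered libraries were paired. Of 180 values of the members under the alternatives, 172 moved by less than 1 SD (log2 scale, pooled within genotype) and 8 by more. Much of this tally was fixed in advance. The replicate block, the variance trend and the choice of genes kept cannot change a log2 difference. Leaving out 1 of 3 libraries of a genotype cannot move it by 1 such SD. All 8 larger moves came with the covariate. There, Igf1 was at 1.51, and Igf1r, Igfbp3 and Igfbp4 changed sign (-0.03, 0.09 and -0.26). Igfbp2 and Igfbp6 did not move beyond their SD, at 3.49 (SE 0.84) and -0.47 (SE 0.69). Ghr reversed to -0.11 with the covariate. Leaving out the 10 genes counted mostly in 1 library, chosen after seeing the data, gave 3122 calls. Depth limits Igf1, Igfbp1, Igfbp2 and Igfbp6, which had at most 105 reads in any WT library.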
